A study of Mus musculus with 3 samples.

Results

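The genes described here are 4 fibroblast growth factor (FGF) receptors, Fgfr1 to Fgfr4, and 6 members of the FGF ligand family, Fgf1, Fgf2, Fgf7, Fgf10, Fgf13 and Fgf18. They were taken by name: every probe that is not a control and carries 1 of these 10 gene names on the array, which gave 24 probes (13 for the receptors and 11 for the ligands) among the 41174 probes and 29273 gene names of the array. RNA came from EpH4-PR cells, EpH4 mouse mammary epithelial cells that had been stably transfected with the A isoform of the progesterone receptor and selected as clones, kept in DMEM with 10% FBS until about 75% confluent. The 3 samples were hybridised to 1 Agilent two-colour array each, with the cells' RNA labelled by Cy5 and a purchased reference, the Stratagene mouse standard, by Cy3. Every array had the same dye orientation, so dye bias and RNA source cannot be told apart. The values are levels relative to the reference RNA, and arrays of vector control cells were not analysed here, so no effect of the progesterone receptor is measured. The labels do not say whether the 3 samples were separate cultures, and p-values therefore measure only the spread between these arrays, which may be technical.

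FGF ligands bind receptor tyrosine kinases together with heparan sulfate chains on the cell surface and start signalling through the docking protein Frs2, Ras and the Map kinases. The transcripts of Fgfr1, Fgfr2 and Fgfr3 are spliced into IIIb and IIIc forms, and the IIIb form of Fgfr2, typical of epithelia, is the receptor of Fgf7 and Fgf10, which are made by mesenchyme. In the mammary gland, Fgf10 and Fgfr2 are known for their part in forming the embryonic mammary bud and in the growth of ducts. Fgf13 is an intracellular relative of the secreted ligands that binds sodium channels and does not activate the receptors.

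The labelled cell type was first compared with marker genes. Of 12 epithelial genes, 10 were called higher in EpH4-PR RNA (Cdh1 log2 ratio 4.29 ± 0.097, Epcam 1.26 ± 0.017, Krt18 1.40 ± 0.085 and the probes of Krt8 1.40 ± 0.053 and 1.12 ± 0.040, SD, n = 3), and Krt19 was called lower. The Cdh1 reference signal was above the negative controls on 1 array, so the size of its ratio is set in part by the background correction. Of 12 mesenchymal genes, 10 had a probe called lower and 0 a probe called higher, with log2 ratios of -6.51 ± 0.11 for Vim, -5.03 ± 0.12 for Col1a1 and -3.34 ± 0.031 for Pdgfra (SD, n = 3) at their lowest probes; other probes of these 3 genes lay closer to 0. The summed raw Cy5 intensity of the epithelial list was 143700 to 166900 on the arrays against 14070 to 15250 in Cy3, and that of the mesenchymal list 4929 to 5661 against 45920 to 51770. These sums were not normalized between dyes. Their contrast mixes dye brightness with RNA level, so it does not give the size of the difference. The basal list had 1 gene of 8 called each way (Krt14 higher, Acta2 lower). The Acta2 probes disagreed. A_52_P420504 (-2.80 ± 0.064) and A_52_P210078 (-2.01 ± 0.15) were called lower, the latter with Cy5 above the negative controls on 1 array. A_51_P450957 lay at 0.60 ± 0.11, and it and the remaining Acta2 probes were not called. The endothelial list, which includes Pecam1, had 0 of 4 called by limma, with 2 of its 5 probes at an unadjusted p under 0.05 and 0 at that level without moderation of the variance. Only 1 of these 5 probes exceeded the negative controls in Cy5 on every array and 0 did in Cy3. The absence of calls therefore does not show equal levels. In the blood list, Ptprc and Cd68 were called lower. The progesterone receptor gene Pgr had 2 probes, each above local background in Cy5 on 1 array by the scanner software's flag, with log2 ratios of -0.11 ± 0.22 and -0.19 ± 0.077 (SD, n = 3); where these probes lie relative to the transfected sequence is not given in the files.

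Throughout, a log2 ratio is the normalized log2 of Cy5 (EpH4-PR) over Cy3 (reference RNA) on an array, and a probe is called higher or lower where limma's test of the mean against 0 gave an adjusted p (Benjamini-Hochberg, over all 41171 probes tested) under 0.05 and the mean lay at least 1 log2 unit from 0. By this rule 1 of the 24 FGF probes was higher, against 2.26% of all probes, and 1 was lower, against 3.83% of all probes. The other 22 were not called. The background share rests on loess normalization within each array: 932 probes were higher and 1578 lower, but 7031 and 708 under median centring, and 3616 and 3887 with the scanner software's own ratio. The median log2 ratio of the FGF probes was -0.16, beside -0.0094 for all probes, and 19 of the 24 lay within 0.5 of 0, as did 79.2% of all probes. Their SD between arrays ran from 0.021 to 0.34 with a median of 0.12, beside 0.086 for all probes. An adjusted p under 0.05 from limma, at any ratio, was given by 16 of the 24 FGF probes and by 50.3% of all probes tested.

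**Figure D1:**
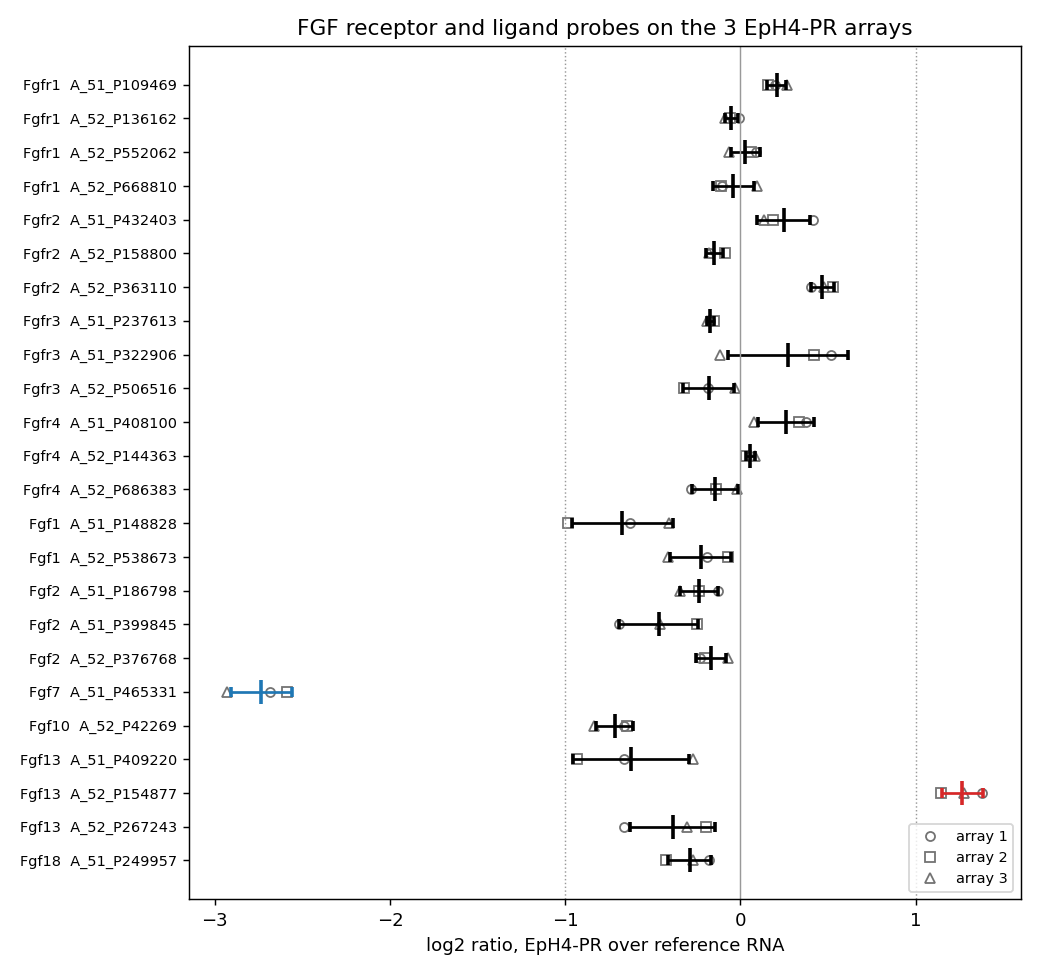
Log2 of the Cy5 to Cy3 ratio, cells over reference (x axis), for each of the 24 FGF probes (rows, with gene and probe name). Grey symbols are the 3 arrays, vertical bars the mean and horizontal bars the SD (n = 3); dotted lines mark 1 log2 unit either way. The Fgf7 probe (blue, called lower) lies at -2.73 and 1 Fgf13 probe (red, called higher) at 1.27, and all other probes lie between -0.72 and 0.47.

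The FGF probes were dim. Each array carried 314 negative control spots, whose median intensity was 72.6, 74.1 and 57.3 in Cy5 and 119, 121 and 91.8 in Cy3 on replicates 1, 2 and 3, above a median local background of 42, 43 and 42 in Cy5 and of 40, 43 and 39 in Cy3. The scanner software's flag for a spot well above local background was set on 4.78%, 5.10% and 0.637% of these negative controls in Cy5, but on 53.5%, 47.5% and 46.5% of them in Cy3. For that reason each FGF spot was also set against the 95th percentile of the negative controls of its array and channel. In the EpH4-PR channel, 19 of the 24 probes exceeded it on every array, beside 66.8% of all probes, and 3 probes did so on no array. For Cy3, 7 of the 24 exceeded it on all 3 arrays, beside 33.2% of all probes, and 6 on none. A ratio whose reference signal is within the range of negative controls is set in part by the background correction. None of the FGF spots was saturated. Levels of different probes are not compared.

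**Figure D2:**
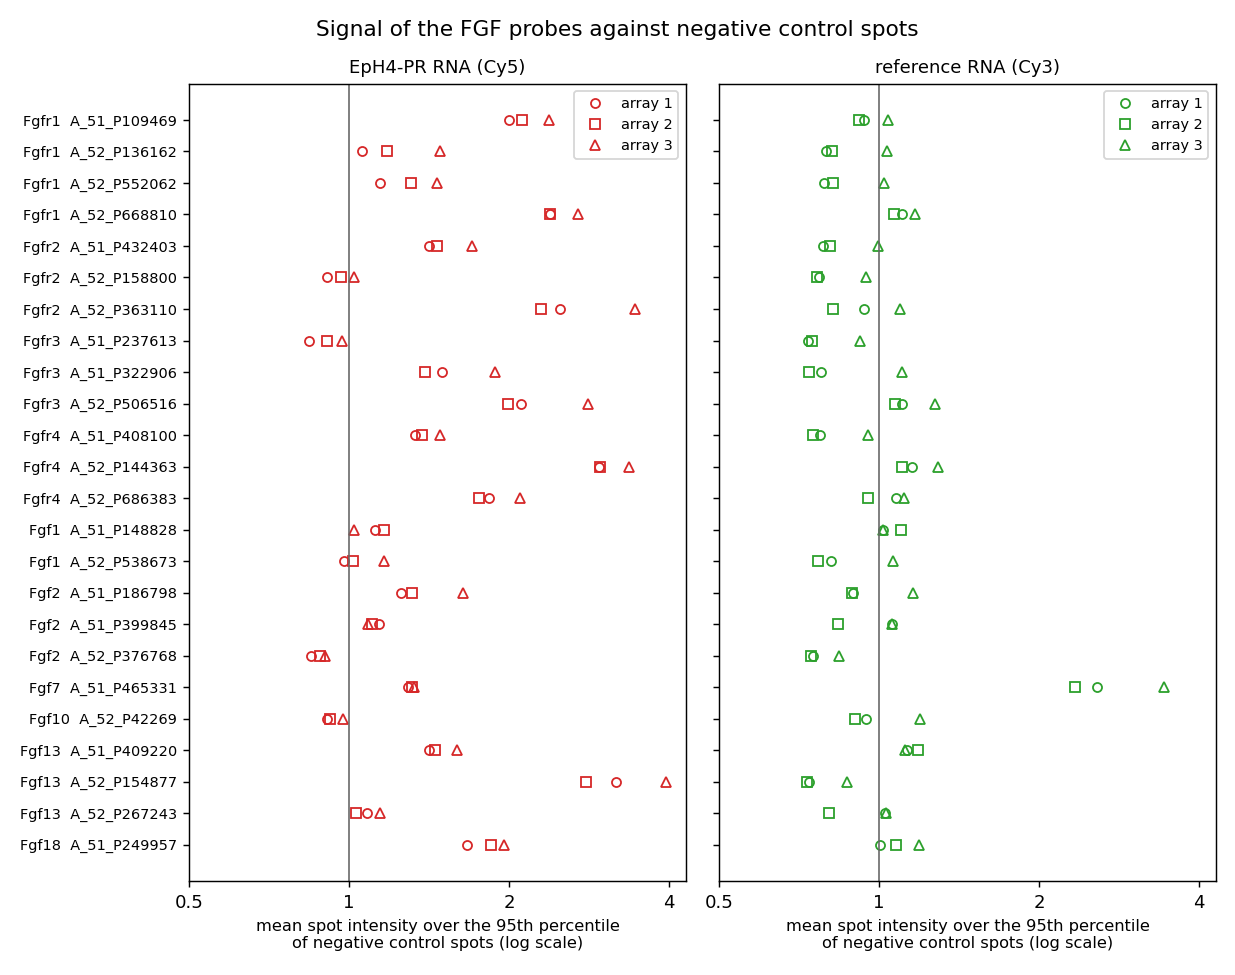
Mean spot intensity divided by the 95th percentile of the array's negative control spots (x axis, log scale) for the 24 FGF probes, in the EpH4-PR channel (left) and the reference channel (right). Symbols are the 3 arrays and the vertical line at 1 is the 95th percentile; most probes lie right of it in Cy5, while in Cy3 the Fgf7 probe alone lies above 2 (2.57, 2.34 and 3.45 on replicates 1, 2 and 3).

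None of the 13 receptor probes was called by limma, with log2 ratios between -0.18 and 0.47. By limma, 7 of them had an unadjusted p and 6 an adjusted p under 0.05, and 50.3% of all probes tested had such an adjusted p. Without moderation of the variance, 4 receptor probes had a p of at most 0.05. In Cy5, 11 of the 13 exceeded the negative controls on every array, and in Cy3, 3 did. Each of the 4 receptor genes had probes on both sides of 0, and 5 receptor probes changed side under median centring or with the scanner software's ratio.

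Fgfr1, the receptor of broad expression in mesenchyme, had 4 probes. Its probe A_52_P668810 had Cy5 intensities of 205, 209 and 170 on replicates 1, 2 and 3, against negative control percentiles of 85.9, 87.4 and 62.9, and Cy3 intensities of 179, 179 and 125. The log2 ratios of that probe were -0.10, -0.11 and 0.094, a mean of -0.040 ± 0.12 (SD, n = 3; 95% interval -0.19 to 0.11). The arrays therefore lay on both sides of 0, and this was the only Fgfr1 probe above the negative controls in Cy3 on every array. Probe A_51_P109469 gave log2 ratios of 0.20, 0.16 and 0.27, a mean of 0.21 ± 0.055 (adjusted p = 0.0161 from limma), with all 3 arrays above 0 and Cy3 above the negative controls on 1 array. Probes A_52_P136162 and A_52_P552062 had means of -0.051 ± 0.039 and 0.029 ± 0.081 (SD, n = 3), with adjusted p of 0.37 and 0.66 from limma. The Fgfr1 values rest on the normalization: median centring put A_51_P109469 at 0.54 and the scanner software's ratio put it at 0.61, and A_52_P668810 at 0.47 under median centring, none of them called.

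Fgfr2, the epithelial receptor of Fgf7 and Fgf10, held the highest ratio among the receptor probes. Probe A_52_P363110 had Cy5 intensities of 215, 201 and 218, each at least 2.30 times the negative control percentile of its array, and Cy3 intensities of 151, 138 and 117, above that percentile on 1 array. Its log2 ratios were 0.40, 0.53 and 0.48, a mean of 0.47 ± 0.063 (SD, n = 3; 95% interval 0.35 to 0.59, adjusted p = 0.00101 from limma), so all 3 arrays lay above 0 but under the limit of 1 log2 unit. Probe A_51_P432403 gave 0.42, 0.19 and 0.14 (mean 0.25 ± 0.15, adjusted p = 0.0336 from limma), also above 0 on each array. The third probe, A_52_P158800, had no array with Cy5 well above background and gave -0.17, -0.090 and -0.18. Its reference signal also stayed within the negative controls on every array, so these ratios describe no measured level. The array files give no probe positions, so whether a probe reads the IIIb or the IIIc form is unknown.

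Fgfr3, a receptor known from cartilage and from epithelia of the skin and bladder, had probes that differed among arrays. Probe A_52_P506516 exceeded the negative controls in both channels on all 3 arrays, with Cy5 intensities of 181, 174 and 177, and its log2 ratios were -0.19, -0.32 and -0.033 (mean -0.18 ± 0.14, adjusted p = 0.0777 from limma). Probe A_51_P322906 gave 0.52, 0.42 and -0.12, the widest spread among the FGF probes (mean 0.27 ± 0.34, SD, n = 3), with replicate 3 on the other side of 0. Probe A_51_P237613 was not well above background in Cy5 on any of the arrays and exceeded the negative controls on no array in either channel. Its log2 ratio of -0.17 ± 0.021 therefore describes no measured level.

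Fgfr4, the receptor without the IIIb and IIIc choice, had 3 probes. Probe A_52_P144363 had Cy5 intensities of 254, 260 and 212 and Cy3 intensities of 186, 186 and 138. Its log2 ratios of 0.055, 0.033 and 0.086 (mean 0.058 ± 0.027, SD, n = 3; 95% interval -0.050 to 0.17) were close to 0 on every array after loess, but median centring put the mean at 0.69 and the scanner software's ratio at 0.28, neither called. Probe A_51_P408100 gave 0.37, 0.34 and 0.077 (mean 0.26 ± 0.16, adjusted p = 0.0328 from limma), with its reference signal within the negative controls on all 3 arrays. Probe A_52_P686383 gave -0.28, -0.14 and -0.018 (mean -0.15 ± 0.13, adjusted p = 0.114 from limma). Fgfr4 signal in EpH4-PR RNA was therefore above the negative controls for all 3 of its probes, without a called difference from reference RNA.

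Among the ligands, Fgf7 (keratinocyte growth factor, a mesenchymal ligand for epithelial Fgfr2) stood apart. Its single probe A_51_P465331 read 111, 115 and 83.4 in Cy5 and 416, 394 and 368 in Cy3, above the negative control percentile in both channels on all 3 arrays. The Cy5 reading exceeded that percentile by factors of 1.29, 1.31 and 1.32, so Fgf7 signal was low in EpH4-PR RNA but not at the level of the negative controls. The log2 ratios were -2.69, -2.59 and -2.93, a mean of -2.73 ± 0.17 (SD, n = 3; 95% interval -2.93 to -2.54), or 6.66-fold lower than in reference RNA (adjusted p = 2.62e-05 from limma). All 3 arrays lay below -2.5, and the probe was also called lower under each processing alternative, with means from -4.20 to -2.07. The mesenchymal marker genes given above lay on the same side of 0, and their part in the Fgf7 value was not tested.

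Fgf10, the other mesenchymal ligand of epithelial Fgfr2, had a single probe, A_52_P42269. It read 78.1, 80.3 and 61.2 in Cy5, within the negative controls on all 3 arrays and well above local background on 1 of them, and 153, 151 and 127 in Cy3, above the negative controls on replicate 3 alone. The log2 ratios of -0.66, -0.65 and -0.84 (mean -0.72 ± 0.11, SD, n = 3; adjusted p = 0.000424 from limma) all lay below 0 but did not reach 1 log2 unit. With normexp offset 0 the Fgf10 mean was -1.94 and with the scanner software's ratio -2.62, both called lower. Fgf10 RNA was thus not detectable above negative controls in EpH4-PR cells at this signal.

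Fgf1 and Fgf2 are ligands that lack a classical secretion signal and bind receptors of several kinds. Fgf1 probe A_51_P148828 exceeded the negative controls in both channels on all 3 arrays, at most 1.16-fold, and was well above local background in Cy5 on 2 of them. Its Cy5 intensities were 95.9, 102 and 64.2, and its log2 ratios were -0.63, -0.98 and -0.41 (mean -0.67 ± 0.29, adjusted p = 0.00658 from limma). It passed the call with normexp offset 0 (-1.44) and with the scanner software's ratio (-1.75). The other Fgf1 probe, A_52_P538673, gave -0.19, -0.073 and -0.42 (mean -0.23 ± 0.17, adjusted p = 0.0583 from limma). Fgf2 probe A_51_P399845 gave -0.69, -0.25 and -0.46 (mean -0.47 ± 0.22, adjusted p = 0.0113 from limma), and probe A_51_P186798 gave -0.13, -0.23 and -0.34 (mean -0.23 ± 0.11, adjusted p = 0.0227 from limma). Both of these Fgf2 probes exceeded the negative controls in Cy5 on all 3 arrays. The third Fgf2 probe, A_52_P376768, did so on no array in either channel and was well above local background only in Cy3 on 1 array, so its log2 ratio of -0.17 ± 0.085 describes no measured level. All 5 probes of Fgf1 and Fgf2 lay below 0 on every array, without reaching the limit of 1 log2 unit. Of these, A_51_P148828 alone exceeded the negative controls in both channels on all 3 arrays. In Cy3 the others did so on at most 2 arrays, so the shared sign does not amount to 5 measured differences.

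Fgf18, a ligand of the Fgf8 subfamily known from skeletal and lung development, was read by probe A_51_P249957 above the negative controls in both channels on all 3 arrays. Its Cy5 intensities were 143, 161 and 123 and its Cy3 intensities 162, 181 and 127. The log2 ratios were -0.18, -0.42 and -0.27, a mean of -0.29 ± 0.12 (SD, n = 3; 95% interval -0.45 to -0.13, adjusted p = 0.0139 from limma), which became 0.033 under median centring. Its direction relative to reference RNA therefore rests on the normalization.

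Fgf13 had 3 probes, all filed under the same transcript accession, and they disagreed. Probe A_52_P154877 read 273.5, 244 and 249 in Cy5, each at least 2.79 times the negative control percentile, and 119, 123 and 93.0 in Cy3, within the negative controls on all 3 arrays and well above local background on 2 of them. Its log2 ratios were 1.38, 1.15 and 1.28, a mean of 1.27 ± 0.12 (SD, n = 3). The 95% interval of that mean, from limma's moderated variance, was 1.12 to 1.42 (adjusted p = 8.35e-05 from limma). This probe was called higher under each processing alternative, with means from 1.21 to 3.45. With the reference signal within the negative controls, the size of this difference is not fixed by these arrays. Probe A_51_P409220 gave -0.66, -0.93 and -0.27 (mean -0.62 ± 0.33, 95% interval -0.95 to -0.29). It was the only Fgf13 probe above the negative controls in both channels on all 3 arrays. Probe A_52_P267243, above them on 3 arrays in Cy5 and 2 in Cy3, gave -0.66, -0.20 and -0.30 (mean -0.39 ± 0.24, 95% interval -0.64 to -0.13). The intervals of these probes do not meet that of the first, and no array of the first overlaps any array of the other two. Which Fgf13 transcripts each probe reads is not given in the files, so the gene has no single direction here.

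Upstream sequences of the genes with a called probe, Fgf7 and Fgf13, are shown because Fgf13 transcripts start at several places and the probes of that gene disagreed. They are the 250 bases before an annotated start, from RefSeq (GRCm38.p6), where 8 of the 10 genes had at least 1 entry; Fgf1 and Fgfr1 had none. Fgf13 had 4 starts, and those with most matches to each motif are shown. Capitals mark TGTTCT or its reverse complement AGAACA, the hexamer at the core of progesterone response elements. They also mark GGGCGG or CCGCCC, the GC box bound by Sp1.
Fgf7, chr2:126034408-126034657, plus strand: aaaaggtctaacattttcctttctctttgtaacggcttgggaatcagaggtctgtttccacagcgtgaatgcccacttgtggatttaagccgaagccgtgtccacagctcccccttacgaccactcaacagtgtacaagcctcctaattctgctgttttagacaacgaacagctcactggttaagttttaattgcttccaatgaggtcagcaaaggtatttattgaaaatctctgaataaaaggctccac
Fgf13, chrX:59585573-59585822, minus strand: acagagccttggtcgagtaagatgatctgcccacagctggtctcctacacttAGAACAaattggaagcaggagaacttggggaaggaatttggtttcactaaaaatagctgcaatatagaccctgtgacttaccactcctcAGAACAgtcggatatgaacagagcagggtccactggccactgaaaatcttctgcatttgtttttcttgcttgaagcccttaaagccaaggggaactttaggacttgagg
Fgf13, chrX:59134437-59134686, minus strand: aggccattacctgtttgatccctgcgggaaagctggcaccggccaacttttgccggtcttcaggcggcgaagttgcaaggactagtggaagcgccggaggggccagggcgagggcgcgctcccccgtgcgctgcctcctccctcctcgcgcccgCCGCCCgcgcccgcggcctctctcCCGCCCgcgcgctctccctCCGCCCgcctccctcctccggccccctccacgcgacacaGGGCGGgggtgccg
The hexamer occurred on either strand in 16.1% of all 32851 RefSeq windows of this length and the GC box in 32.7%. Fgf7 held neither, nor TATAAA (12.4% of windows). Of the 12 windows of the FGF genes, only the first Fgf13 window shown held the hexamer, at 198 and 109 bases before the start. The second held 4 GC boxes and a GC content of 74.4%, beside a median of 52.4% over all windows. This was not particular to it. An Fgf13 window not shown held 3 GC boxes and 74.8% GC, and the Fgf18 window 1 GC box and 77.2% GC. These matches are letters in a window and were not measured as binding sites.

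The processing settings changed which FGF probes were called. With normexp offset 0, which shrinks dim ratios less, 5 FGF probes were called lower (those of Fgf7 and Fgf10, and 1 probe each of Fgf1, Fgf2 and Fgf13), and with the scanner software's ratio 4 were (Fgf7, Fgf10, 1 probe of Fgf1 and 1 of Fgfr3). The same single Fgf13 probe was called higher in both. Under median centring 1 probe was called each way, Fgf7 at -2.07 and Fgf13 at 1.65, and the highest receptor probe, that of Fgfr2, lay at 0.91. The calls over all probes moved as well. From 932 higher and 1578 lower they became 3125 and 3905 with normexp offset 0. The scanner software's ratio gave 3616 and 3887, and median centring 7031 and 708.

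**Figure D3:**
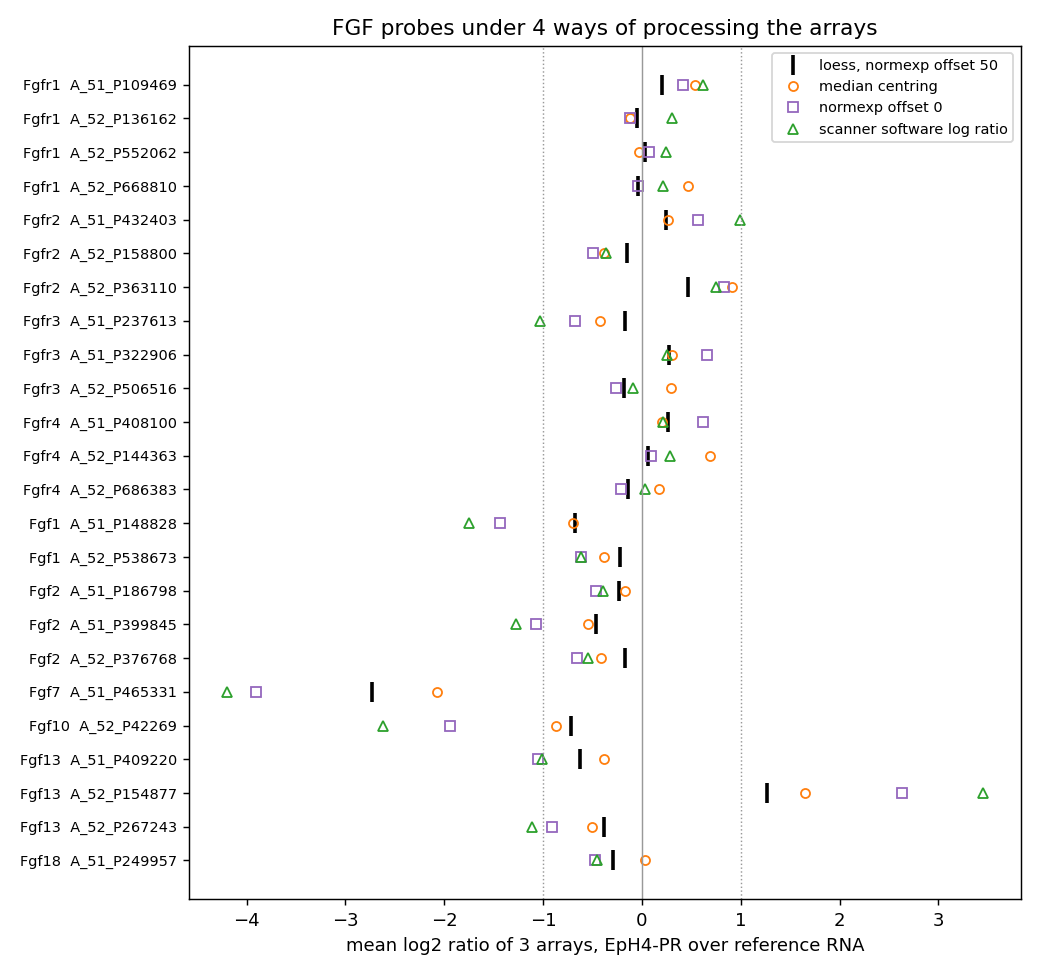
Mean log2 ratio over 3 arrays (x axis) of the 24 FGF probes under loess with normexp offset 50 (black bars), median centring (circles), normexp offset 0 (squares) and the scanner software's ratio (triangles). The Fgf7 probe stays below -1 and the high Fgf13 probe above 1 in all 4, whereas Fgf10 moves from -0.72 to -2.62.

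The other FGF ligands were described from a list of all 22 family genes. The 16 ligand genes not named so far had 27 probes with log2 ratios between -0.61 and 0.23, of which 0 were called by limma; 10 had an unadjusted p under 0.05, and 6 had a p of at most 0.05 without moderation of the variance. In Cy5, 12 of these 27 exceeded the negative controls on every array, and in Cy3, 2 did. Their median was -0.066, beside -0.39 for the 11 ligand probes described above.

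Genes that handle FGFs outside the cell had called members on both sides. Of 16 coreceptor and binding protein genes with a probe, 2 were higher and 3 lower, against 2.67% and 4.67% of all genes, with a list median of -0.10. Fgfbp1, which releases FGFs from the matrix, was higher with a log2 ratio of 1.29 ± 0.18 (SD, n = 3), its reference signal within the negative controls. The syndecan Sdc4, a heparan sulfate proteoglycan, was higher at 1.82 ± 0.025 by 1 of its 2 probes. The syndecan Sdc2 was lower by both of its probes (-1.95 ± 0.066 and -1.15 ± 0.089), and so were the glypicans Gpc1 (-1.15 ± 0.068) and Gpc4 (-1.07 ± 0.061, 1 of 2 probes), although under median centring neither Sdc2, Gpc1 nor Gpc4 was called and Gpc1 lay at 0.25. Fgfrl1, a receptor without a kinase domain, had a log2 ratio of 0.052 ± 0.16. The klotho coreceptors of endocrine FGFs gave -0.60 ± 0.28 and -0.10 ± 0.047 for the probes of Kl and 0.18 ± 0.077 and 0.058 ± 0.068 for those of Klb (SD, n = 3), none of them called. The first Kl probe was called lower with normexp offset 0 (-1.19) and with the scanner software's ratio (-1.33).

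Among 16 heparan sulfate enzyme genes, 0 were higher and 3 lower, against 2.67% and 4.67% of all genes, with a list median of -0.0017. The extracellular sulfatase Sulf2 was lower by both probes (-2.22 ± 0.11 and -1.83 ± 0.078, SD, n = 3), the chain polymerase Ext2 by its only probe (-1.44 ± 0.045), and the epimerase Glce by 1 of 3 probes (-1.01 ± 0.021). Under median centring Ext2 was not called and the Glce probe lay at 0.097, and Glce was called neither without replicate 1 (-0.997) nor with median spot intensity (-0.99), whereas Sulf2 was lower in all of these cases.

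Of 21 adaptor and effector genes downstream of the receptors, 3 were called higher and 0 lower, against the same shares of all genes, and the list median was 0.071. The phosphatase Ptpn11 (Shp2) reached 1.97 ± 0.12 by 1 of 3 probes and Hras 1.44 ± 0.050 by its only probe (SD, n = 3). Nras was 2.15-fold higher by 1 of 2 probes. The docking protein Frs2 was not called, with probes at -0.76 ± 0.18, -0.76 ± 0.13 and 0.39 ± 0.068. The first pair, above the negative controls in both channels on every array, lay above 0 under median centring. The last, above them on every array in Cy5 but on none in Cy3, was called higher with normexp offset 0 (1.48).

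Of 17 feedback inhibitor and target genes, 1 was higher and 6 were lower, against 2.67% and 4.67% of all genes, with a list median of -0.12. The inhibitor Spry1 was higher with log2 ratios of 1.32, 1.37 and 1.51 (mean 1.40 ± 0.097, SD, n = 3). The lower genes were led by the immediate early genes Egr1 (-5.33 ± 0.046) and Fos (-4.20 ± 0.19), followed by the Map kinase phosphatase Dusp6 (-2.61 ± 0.041), the transcription factor Etv1 (-1.70 ± 0.096), the FGF inhibitor Il17rd (-1.17 ± 0.21, by 1 of 3 probes, one that the array lists as 2810004A10Rik) and Spry2 (-1.06 ± 0.13, 1 of 2 probes). Spry2 was called neither under median centring nor without replicate 3 (-0.99). Many signals other than FGFs act on these genes, and no FGF treatment was measured.

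The 8 regulators of receptor splicing had a list median of 0.68, the highest of the 6 FGF pathway lists. Of these genes, 2 were higher and 0 lower, against 2.67% and 4.67% of all genes. Srsf6 was called both ways, as 0.0231% of all genes were (1.19 ± 0.039 and -1.25 ± 0.0051, the latter -0.023 and not called under median centring). Esrp1, the epithelial factor that favours the IIIb exon of Fgfr2, was higher by probe A_52_P79821, with log2 ratios of 1.99, 1.91 and 1.90 (mean 1.93 ± 0.048, SD, n = 3; adjusted p = 2e-05 from limma), and its reference signal stayed within the negative controls. The other Esrp1 probe was well above background on no array in either channel. Its paralogue Esrp2 had probes at 0.96 ± 0.10 and 0.77 ± 0.55 (SD, n = 3), neither called, though both were called higher under median centring (1.44 and 1.36), and the first also with normexp offset 0 (1.74) and with the scanner software's ratio (2.44). The reference signal of these Esrp2 probes exceeded the negative controls on 0 and 1 arrays, in that order. The RNA-binding protein Celf4 was higher at 1.20 ± 0.047.

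**Figure D4:**
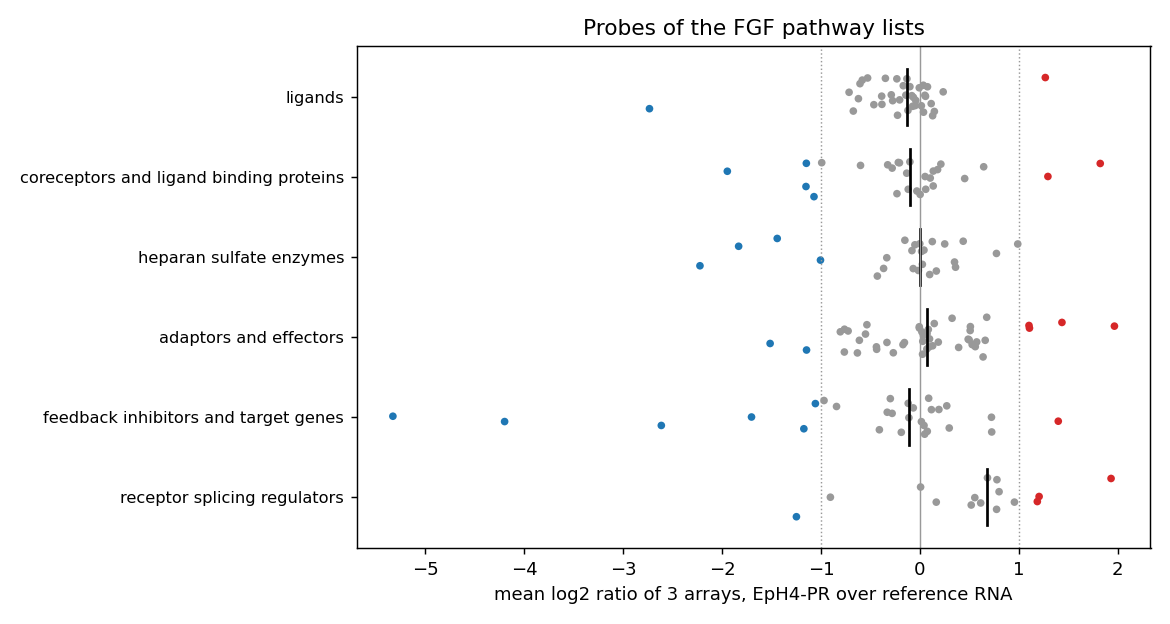
Mean log2 ratio over 3 arrays (x axis) of every probe in the 6 FGF pathway lists (rows). Red points were called higher and blue points lower than reference RNA, grey points were not called, and black lines are list medians, which run from -0.13 for the ligands to 0.68 for the splicing regulators.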

How the data were processed

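The 3 EpH4-PR samples were hybridised to Agilent whole mouse genome arrays in 2 colours, 1 array per slide, so slide could not be a block. The authors deposited output of Agilent Feature Extraction 8.1.1.1, per the file headers: spot and local background intensity in both channels, and the log10 of red over green as the software gives it after dye normalization. The authors also deposited a table of their own comparison (fold change and p-value), which was not used. Genome build and array analysis steps are not given in the sources used here.

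Mean intensities were background corrected by normexp (offset 50) and loess normalized within arrays with limma 3.58.1 in R 4.3.3. Control spots and outlier spots (150, 18 and 3) were left out, and spots of a probe averaged; 41171 of 41174 probes had at least 2 arrays. Pearson correlations between arrays were 0.952, 0.923 and 0.929 across probes, which are not independent replicates. The mean ratio of each probe was tested against 0 by lmFit with eBayes, and calls required a Benjamini-Hochberg adjusted p under 0.05 and 1 log2 unit. The number of arrays limits the precision. A gene was called where a probe was called and none the opposite way. The normexp offset shrinks ratios of dim spots. Current symbols came from RefSeq accessions (GRCm38.p6; 21437 probes matched), otherwise from the file. The fit was tested on simulated data.

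The named genes were every FGF probe, genes of the ligand and splicing lists with a called probe, up to 4 called genes each way in the other lists, Fgfrl1, Kl, Klb, Esrp1, Esrp2, Frs2, Pgr and marker genes. Il17rd, Spry2, Krt14, Acta2 and Cd68 fall outside that rule and were named after their values were seen. The members and lists were chosen with earlier results of these data known. Alternatives were background, scanner ratio, centring, filters, outliers, median intensity, trend, the methods' t-test and single arrays left out; the filter on negative controls and the comparison with them were added after seeing the data. A result for 1 gene of the lists is not reported here.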

Additional observations from a re-analysis of the deposited data

How the results depend on the processing

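The calls of the Fgf7 probe and of the higher Fgf13 probe held under every alternative run. With normexp offset 0, another Fgf13 probe was called lower (-1.05). Probes called higher and lower among all (932 and 1578) became 3125 and 3905 with normexp offset 0, 3616 and 3887 with the scanner software's ratio and 7031 and 708 under median centring, the share of higher calls moving from 37.1% to 44.5%, 48.2% and 90.9%. FGF probes called lower (1) became 5 with normexp offset 0 and 4 with the scanner's ratio. Pathway genes called higher and lower (9 and 13) became 16 and 22, 17 and 23, and 34 and 7 in the same order of settings. The cause was not tested, except that offset 0 shrinks dim ratios less by construction. Median centring reversed probes of Fgfr1 (-0.029 and 0.47), Fgfr3 (0.30), Fgf18 (0.033), Fgfr4 (0.17), Klb (-0.17 and -0.0063), Frs2 (0.20 and 0.34), Esrp1 (-0.17), Pecam1 (-0.21), Glce (0.097) and Gpc1 (0.25). The scanner's ratio reversed probes of Fgfr1 (0.31 and 0.22), Fgfr4 (0.034), Fgfrl1 (-0.062), Esrp1 (-0.0061) and Pecam1 (-0.61), and median spot intensity those of Esrp1 (-0.0092) and Pecam1 (-0.010). Without single arrays, probes ranged from -0.0017 to 0.075 for Fgfr1, -0.18 to 0.019 for Pgr, -0.020 to 0.045 for Esrp1 and -0.017 to 0.034 for Pecam1, and counts over all probes from 931 to 951 higher and from 1580 to 1601 lower. Without moderation of the variance (the methods' t-test), 929 probes were higher and 1577 lower at an unadjusted threshold, and 897 and 1547 once adjusted by Benjamini-Hochberg. A filter on negative controls, chosen after seeing the data, gave 932 and 1571. No paired analysis was possible because the arrays form a single group. Dim reference spots limit most FGF ratios.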
